A study of Bos taurus with 4 samples.

Results

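Desmosome and epithelial cadherin genes were followed through bovine small intestine, muscle and intestinal organoids. The 10 genes were taken by symbol: the desmosomal cadherins DSC2 and DSG2, the desmosomal plaque genes DSP, JUP, PKP2 and PKP3, the desmosome-associated membrane protein gene PERP, the cadherins CDH1 and CDH17, and EPCAM. Each symbol had 1 row in the count tables, so the set was 10 of 29792 rows, and all 10 were among the 22200 rows with a read in at least 1 library. Tissue and organoids came from Hanwoo cattle over 24 months old. The libraries were of small intestine tissue, of muscle tissue, of intestinal organoids at passage 5 (P5 organoids) and of intestinal organoids at passage 10 (P10 organoids), and the labels name no genetic change in any group. Organoids are three-dimensional cultures. Here jejunal crypts, the pockets that hold the stem cells of the gut lining, were the starting material, with Matrigel as the support and IntestiCult as the medium. Each condition had 1 library, so no difference has a replicate check, no test between conditions exists and no p-value is given. The number of animals or cultures behind a library, and which muscle was sampled, were not given in the sources used here.

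Desmosomes are spot-like junctions that join the keratin filaments of neighbouring epithelial cells. Their transmembrane cadherins, the desmocollins and desmogleins, bind across the gap between cells, and inside the cell plakoglobin (the product of JUP) and the plakophilins link the cadherin tails to desmoplakin (the product of DSP), which holds the filaments. E-cadherin (the product of CDH1) forms the adherens junction on actin instead. LI-cadherin (the product of CDH17) is a cadherin with a short cytoplasmic tail found in intestinal epithelium, and EPCAM is an epithelial adhesion molecule of the basolateral membrane.

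Totals were 17776273 reads in intestine, 12917720 in muscle, 13599831 at P5 and 17730571 at P10, so reads of different libraries are not directly comparable. The 18S ribosomal RNA gene RN18S1 held 23.6% of the reads in muscle, 4.08% in intestine, 4.81% at P5 and 0.264% at P10. Rows with a read numbered 18920 at P5 and 17563 at P10. QuantSeq sequences only the 3′ end of each polyadenylated RNA, so a count does not scale with transcript length. Levels are given as reads and as CPM (reads per 1000000 reads of the library), with exact Poisson 95% intervals. Differences are log2 differences of quantile-normalised counts plus 1, and their intervals combine the Poisson limits of both counts. Counting error is all that these intervals hold, as PCR duplicates are not separate molecules. Counts up to 3 reads were taken as the floor, equal to 0.232 CPM in muscle and 0.169 to 0.221 CPM in the other libraries.

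The labels were set against marker genes of other lists. The muscle library held 356186 reads of 6 skeletal muscle genes (ACTA1, CKM, MYH1, MYH2, MYH7 and TNNT3), against 39 in intestine, 9 at P5 and 1 at P10, so its defining genes were those of skeletal muscle. Of 7 genes of intestinal epithelium, KRT18, VIL1, CDX2 and ELF3 were at 0 reads in muscle, CDX2 having only 4 reads in intestine, while LGALS4 had 348 muscle reads, KRT8 132 and KRT19 77, or 557 in all. Intestine held genes of several other cell types, which were nearly missing from the organoids: 5 stromal genes summed to 928 CPM in intestine, 2.57 at P5 and 0.282 at P10, with COL3A1, DCN and LUM at 0 in both organoid libraries. Likewise, 5 immune genes summed to 5197 CPM in intestine, 4.34 at P5 and 9.02 at P10, and 5 smooth muscle genes to 2186, 12.1 and 7.39 CPM. The 4 endothelial genes summed to 43.8, 1.54 and 2.31 CPM. In these bulk samples, fewer epithelial cells and less RNA per epithelial cell cannot be told apart.

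**Figure D1:**
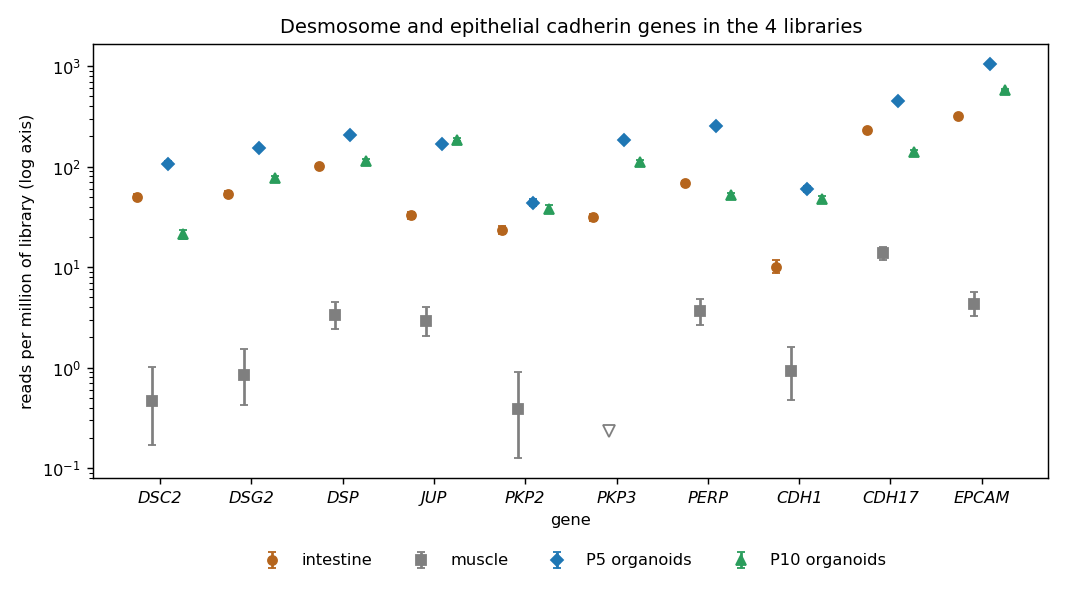
Level of each of the 10 genes in the 4 libraries, in CPM on a log axis. Symbols are single libraries, bars are exact Poisson 95% intervals of the count, and the open triangle is the floor of 3 reads for PKP3, which had 0 reads in muscle. Every gene is lowest in muscle, and 9 of the 10 are highest in P5 organoids, with JUP highest in P10 organoids.

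All 10 genes were higher in intestine and in both organoid libraries than in muscle, and all 10 differences were at least 2-fold (the plot of levels by library). Of all genes with 50 reads or more in the library where they were higher, those standing at least 2-fold above muscle made up 30.6% in intestine, 31.6% at P5 and 34.6% at P10. Over the 10 genes, the log2 difference from muscle had a median of 4.27 in intestine, 5.20 at P5 and 4.47 at P10, while the median over all genes was 0.11, 0.14 and 0.25. PKP3, at 0 reads in muscle, enters these medians with a muscle value that rests on the added 1. With its muscle count set at the floor instead, the medians were the same. Summed over the 10 genes, the level was 30.7 CPM in muscle (27.7 to 33.8), 923 in intestine (909 to 938), 2663 at P5 (2636 to 2691) and 1363 at P10 (1345 to 1380). When library totals replaced quantile normalisation, the all-gene median moved up by 1.17 for intestine against muscle, 1.21 for P5 organoids and 1.29 for P10 organoids. Under that scaling 56.9%, 58.4% and 61.4% of all genes were at least 2-fold higher than muscle and 9.71%, 14.1% and 14.1% lower, against 24%, 24.2% and 24.6% lower with quantile normalisation. Relative to the median of all genes, the 10 genes then stood 4.03 higher in intestine, 5.01 at P5 and 4.23 at P10, against 4.16, 5.06 and 4.22 with quantile normalisation.

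The 396 muscle reads of these genes were spread unevenly. CDH17 alone held 178 of them, or 45.0% (Wilson 95% interval 40.1% to 49.9%), against 24.9% of the summed reads in intestine. Per library total, the muscle level was 3.32% of that in intestine over the 10 genes together, from 0.938% for DSC2 to 9.17% for CDH1 among the 9 genes with a muscle read. The 7 epithelial marker genes together stood at 2.37% and 5 enterocyte genes (ALPI, FABP2, APOA4, SLC15A1 and ANPEP) at 0.420%. ANPEP, the gene of a brush border aminopeptidase, differed from the rest of its list, with 11.8 CPM in muscle against 7.03 in intestine. Whether intestinal RNA contributed to the muscle reads was not tested.

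Against intestine, P5 organoids were higher for all 10 genes, and P10 organoids for 6. The share of all genes by direction alone was not counted, here or between the passages. At P5, 6 genes (DSG2, JUP, PKP3, PERP, CDH1 and EPCAM) were at least 2-fold higher and the other 4 lay between 0.74 and 0.90 on the log2 scale, where 20.2% of all genes were at least 2-fold higher and 20.2% lower. With library totals DSC2 passed as well (1.12), making 7 genes, and without RN18S1 DSP too (1.01), making 8. At P10, JUP, CDH1 and PKP3 were at least 2-fold higher, DSC2 and CDH17 at least 2-fold lower and 5 genes within 2-fold, where 25.5% of all genes were at least 2-fold higher and 23.6% lower. The P10 counts were thus near the background. The median log2 difference from intestine was 1.53 at P5 (1.42 to 1.63) and 0.35 at P10 (0.19 to 0.50), against 0.065 and 0.10 over all genes. Limits in brackets after a median, here and below, are the medians of the 10 genes' own counting limits. They are not an interval of the median and leave out the spread between genes, which at P10 ran from -1.52 to 2.32. CDH17 at P10 lay on the 2-fold line, with a log2 difference of -1.01, and between -0.98 and -0.72 with library totals (with or without RN18S1), TMM, upper-quartile normalisation and quantile normalisation without muscle, which left DSC2 as the 1 gene at least 2-fold lower. The organoid comparisons share the intestine library, so a deviation of that library enters both. Summed over the 7 epithelial marker genes, the level was higher in organoids too, at 1817 CPM in intestine, 10066 at P5 and 9958 at P10. KRT8 and KRT19 held most of that sum in each of these libraries, and CDX2 went from 199 reads at P5 to 24 at P10. The part of cell composition in the differences from intestine was not tested. Per 100 reads of those markers, the 10 genes had 50.8 reads in intestine, 26.5 at P5 and 13.7 at P10. Taken marker by marker, the organoids lay below intestine in this ratio for every marker but VIL1, the only marker that rose less than the 10 genes. By library totals, VIL1 stood at 208% of intestine at P5 and 120% at P10, and the 10 genes together at 288% and 148%.

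**Figure D2:**
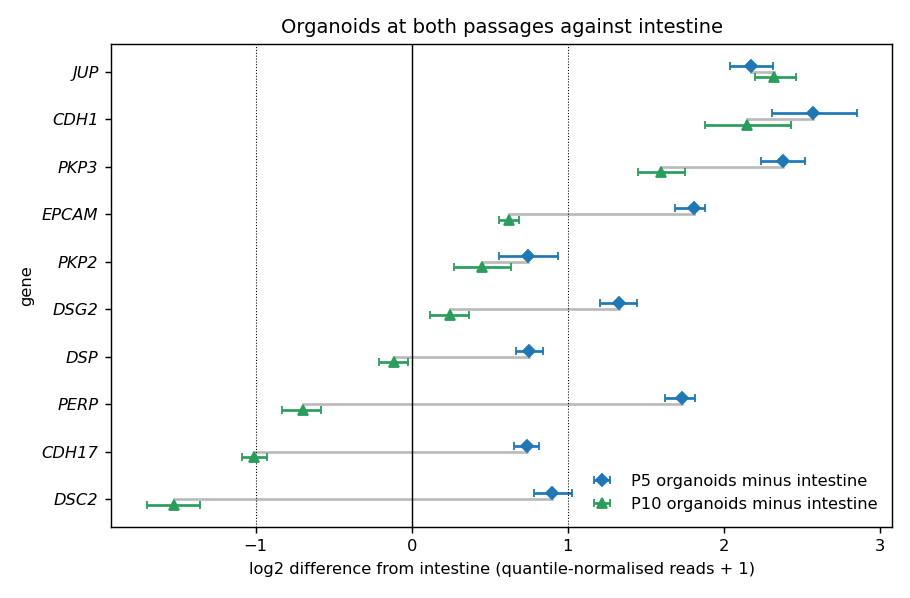
Log2 difference of each gene from intestine on the horizontal axis, in P5 organoids (diamonds) and P10 organoids (triangles), from quantile-normalised reads plus 1. Bars are 95% intervals for counting error, each condition is 1 library, dotted lines mark 2-fold, and genes are sorted by the P10 value: all 10 diamonds lie above 0, and the triangles run from -1.52 for DSC2 to 2.32 for JUP.

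Between the passages, 9 of the 10 genes were lower in P10 than in P5 organoids. DSC2, PERP, CDH17, EPCAM and DSG2 were at least 2-fold lower and none at least 2-fold higher, where 12.2% of all genes were at least 2-fold lower and 12.6% higher. The median log2 difference was -0.98 (-1.07 to -0.88), against 0.090 over all genes. EPCAM was lower by less than 2-fold with library totals (with or without RN18S1), TMM and upper-quartile normalisation, at -0.96 to -0.85, so 4 genes passed under those scalings. The enterocyte genes moved with this difference: they summed to 3956 CPM at P5 and 78.2 at P10 (10383 in intestine), of which ANPEP held 2066 at P5 and 13.7 at P10, with ALPI at 0 in both and APOA4 at 34 and 0 reads, and all 3 with at least 50 reads in either library were at least 2-fold lower. Over the same pair, 5 proliferation genes (MKI67, TOP2A, CCNB1, PCNA and MCM2) summed to 449 and 777 CPM. The part of these cell states in the differences of the adhesion genes was not tested, and with 1 library each, passage number and differences between cultures cannot be told apart.

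DSC2 encodes desmocollin 2 and DSG2 desmoglein 2, the desmosomal cadherins of simple epithelia. DSC2 had 880 reads in intestine (49.5 CPM), 6 in muscle (0.464 CPM), 1460 at P5 (107 CPM) and 375 at P10 (21.1 CPM). The P10 library was thus below intestine, and its difference from P5 was -2.42 (-2.59 to -2.27). DSG2 had 951 reads in intestine (53.5 CPM), 11 in muscle (0.852 CPM), 2090 at P5 (154 CPM) and 1354 at P10 (76.4 CPM), and stayed above intestine at both passages, by 1.33 (1.21 to 1.45) and 0.24 (0.11 to 0.37). The partners were therefore counted in different proportions. For each DSC2 read there were 1.08 DSG2 reads in intestine (0.985 to 1.19), 1.43 at P5 (1.34 to 1.53) and 3.61 at P10 (3.22 to 4.06), while the 17 muscle reads of the pair left a ratio of 1.83 with an interval from 0.621 to 6.04.

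In the RefSeq gene table of the assembly ARS-UCD2.0, DSG2, DSG3, DSG4, DSG1, DSC1, DSC2 and DSC3 follow each other as a run of 7 protein-coding genes. The assembly behind the counts was not given in the sources used here, so only this order is used. DSC2 and DSG2 held 93.0% of its 1968 reads in intestine, 95.2% of 3728 at P5 and 92.4% of 1871 at P10, and 63.0% (44.2% to 78.5%) of 27 in muscle (the plot of the neighbouring cadherin genes). DSG1, best known from epidermis, was next with 116 reads in intestine, 86 at P5 and 64 at P10. DSG3, a desmoglein of stratified epithelia, had 17, 76 and 34 reads, and DSC1 and DSC3 had at most 4 in any library. DSG4 had 1 read in intestine, 10 in muscle, 12 at P5 and 37 at P10, the only gene of the run with more than 3 reads in muscle other than DSC2 and DSG2.

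**Figure D3:**
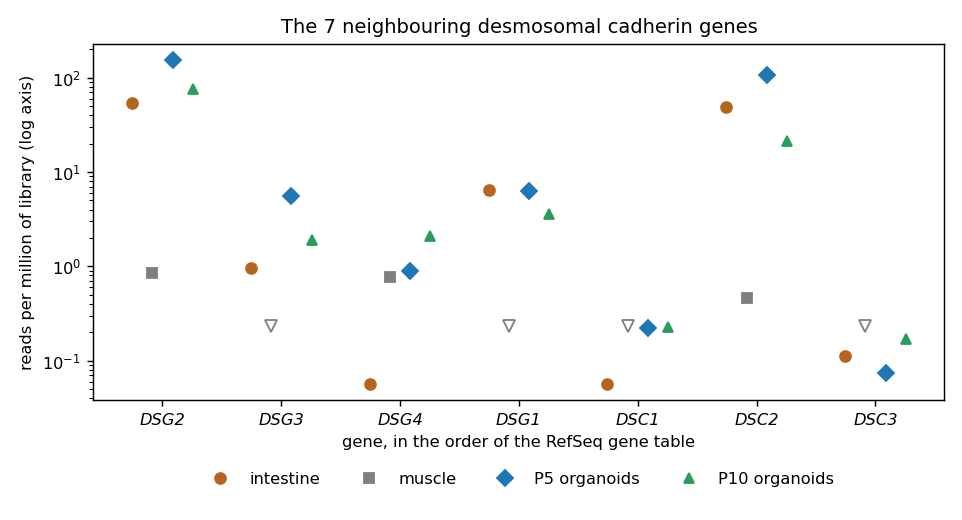
Level of the 7 neighbouring desmosomal cadherin genes in CPM on a log axis, placed in the order of the RefSeq gene table. Symbols are single libraries, and open triangles mark the floor of 3 reads where a library had 0: DSG2 and DSC2 stand above the other 5 genes in intestine and in both organoid libraries.

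Of the plaque genes, JUP and PKP3 stood furthest above intestine in organoids. JUP, whose product plakoglobin also serves adherens junctions, had 584 reads in intestine (32.9 CPM), 38 in muscle (2.94 CPM), 2267 at P5 (167 CPM) and 3293 at P10 (186 CPM). It was the 1 gene of the 10 that was higher at P10 than at P5, by 0.15 (0.08 to 0.23) on the log2 scale. That difference lay above the 0.090 of all genes with quantile normalisation and below their median with library totals (0.16 against 0.18), without RN18S1, with TMM and with upper-quartile normalisation. PKP3, which encodes plakophilin 3, had 555 reads in intestine (31.2 CPM), 0 in muscle, 2487 at P5 (183 CPM) and 1957 at P10 (110 CPM). Among the 12917720 muscle reads, the floor of 3 equals 0.232 CPM, and the Poisson upper limit for 0 reads is 0.286 CPM. Set against that floor per library total, PKP3 was 134-fold higher in intestine, 787-fold in P5 organoids and 475-fold in P10 organoids. Against the upper limit these folds are smaller.

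PKP2, which encodes plakophilin 2, had 418 reads in intestine (23.5 CPM), 5 in muscle (0.387 CPM), 598 at P5 (44.0 CPM) and 677 at P10 (38.2 CPM). Of the 10 genes it had the narrowest range over intestine and the organoids, standing 0.74 (0.56 to 0.94) above intestine at P5 and 0.45 (0.27 to 0.64) at P10. The plakophilins thus differed in their proportion: PKP3 reads per PKP2 read were 1.33 in intestine (1.17 to 1.51), 4.16 at P5 (3.80 to 4.55) and 2.89 at P10 (2.65 to 3.16). DSP had 1818 reads in intestine (102 CPM), 43 in muscle (3.33 CPM), 2782 at P5 (205 CPM) and 2023 at P10 (114 CPM). At P10 its order against intestine depended on the scaling: the log2 difference was -0.12 (-0.21 to -0.02) with quantile normalisation and 0.16 with library totals, and the intervals of the separate levels overlapped on the normalised scale.

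PERP encodes a tetraspan membrane protein of desmosomes that is also a target of p53. It had 1210 reads in intestine (68.1 CPM), 47 in muscle (3.64 CPM), 3468 at P5 (255 CPM) and 919 at P10 (51.8 CPM). The gap between the passages, -2.43 (-2.53 to -2.33), was the widest of the 10 genes with quantile normalisation, and with library totals (with or without RN18S1), TMM and upper-quartile normalisation it was -2.41 to -2.30, narrower than that of DSC2 at -2.45 to -2.34. JUP reads per PERP read were 0.483 in intestine (0.437 to 0.533), 0.654 at P5 (0.620 to 0.689) and 3.58 at P10 (3.33 to 3.86).

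CDH1 had 180 reads in intestine (10.1 CPM), 12 in muscle (0.929 CPM), 825 at P5 (60.7 CPM) and 846 at P10 (47.7 CPM). Both organoid libraries were well above intestine, by 2.57 (2.31 to 2.85) and 2.15 (1.88 to 2.43), and in intestine CDH1 had the fewest reads of the 10 genes. CDH17 had 4093 reads in intestine (230.3 CPM), 178 in muscle (13.8 CPM), 6089 at P5 (448 CPM) and 2470 at P10 (139 CPM), higher than intestine at P5 by 0.74 (0.66 to 0.81) and lower at P10 by a log2 difference of -1.01 (-1.09 to -0.93). CDH1 reads per CDH17 read were accordingly 0.0440 in intestine (0.0377 to 0.0511), 0.135 at P5 (0.126 to 0.146) and 0.343 at P10 (0.316 to 0.370). CDH3, which encodes P-cadherin and lies next to CDH1 in the RefSeq gene table, was lower in organoids than in intestine. It had 364 reads in intestine, 97 in muscle, 89 at P5 and 243 at P10, so that 0.495 CDH1 reads were counted per CDH3 read in intestine, 9.27 at P5 and 3.48 at P10.

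EPCAM had the most reads of the 10 genes in every library but muscle. It had 5725 reads in intestine (322 CPM), 56 in muscle (4.34 CPM), 14156 at P5 (1041 CPM) and 10244 at P10 (578 CPM). Ranked by reads among the 22200 genes, EPCAM was at place 341 in intestine, 77 at P5, 211 at P10 and 8914 in muscle. Against intestine it was higher by 1.81 (1.69 to 1.88) at P5 and 0.62 (0.56 to 0.69) at P10. With library totals (with or without RN18S1), TMM and upper-quartile normalisation, the differences were 1.52 to 1.70 at P5 and 0.59 to 0.84 at P10. CDH17 reads per EPCAM read were 0.715 in intestine (0.687 to 0.744), 0.430 at P5 (0.417 to 0.443) and 0.241 at P10 (0.231 to 0.252).

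Since the ratios and shares within a library do not depend on its total, the mix of the 10 genes could be compared directly (the plot of shares). EPCAM held 34.9% of the summed reads in intestine, 39.1% at P5 and 42.4% at P10, and the 4 plaque genes together held 20.6% (20.0% to 21.2%), 22.5% (22.0% to 22.9%) and 32.9% (32.3% to 33.5%). JUP made up most of that gap, with 3.56%, 6.26% and 13.6%. The opposite order was found for CDH17, at 24.9%, 16.8% and 10.2%, and for DSC2, at 5.36%, 4.03% and 1.55%. DSG2 held 5.79%, 5.77% and 5.60%, with overlapping intervals. PERP was highest at P5, with 7.37%, 9.57% and 3.80%.

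**Figure D4:**
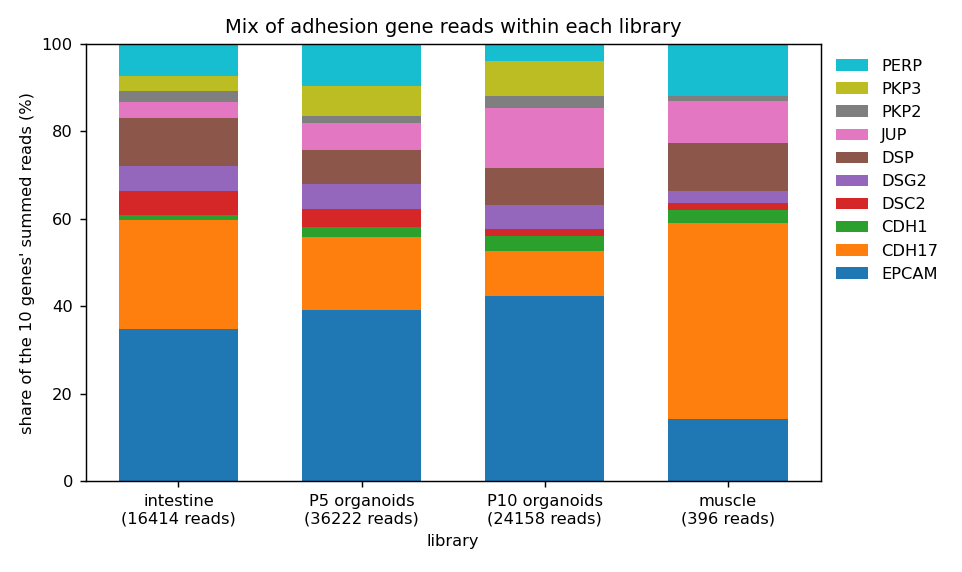
Share of each gene, in percent, in the summed reads of the 10 genes within a library, with the summed reads under each bar. Each bar is 1 library. From intestine to P5 to P10 organoids the JUP band widens from 3.56% to 13.6% and the CDH17 band narrows from 24.9% to 10.2%; the muscle bar rests on 396 reads.

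Other genes of these junctions were read from fixed lists. Of 7 other desmosomal genes (DSC1, DSC3, DSG1, DSG3, DSG4, PKP1 and PKP4), 4 had at least 50 reads in either library for P5 organoids against intestine, of which 2 were at least 2-fold higher (all genes 20.2%) and none lower, and 3 for P10 organoids, of which 2 were higher (all genes 25.5%) and none lower. PKP1, the plakophilin of stratified epithelia, had 107 reads in each organoid library and 0 in intestine. With intestine set at the floor, it was 46.6-fold higher at P5 and 35.8-fold at P10 per library total. PKP4 had 1240 reads in intestine, 164 in muscle, 1678 at P5 and 3103 at P10. Of the squamous epithelium markers, KRT5 and KRT14 had no read in any library, TP63 had 11 reads at P5 and 23 at P10 against 17 in intestine and 1189 in muscle, and SFN had 419 and 192 against 49 and 0.

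Adherens junctions hold actin through the catenins and linkers. Of 9 such genes, 8 reached 50 reads in either library, and against intestine 2 (NECTIN1 and NECTIN3) were at least 2-fold higher at P5, 1 (NECTIN1) at P10 and none lower at either passage. All genes passed at 20.2% and 25.5%, so these counts were near or below the background. CTNNB1, the gene of β-catenin, differed from intestine by -0.0054 (-0.08 to 0.07) at P5 and -0.39 (-0.45 to -0.33) at P10. The median over the 8 genes was 0.37 at P5 and 0.18 at P10, against 1.53 and 0.35 for the 10 genes above. Between the passages all 8 were within 2-fold.

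Of 9 other cadherins, 6 of the 8 with at least 50 reads in either library were at least 2-fold lower than intestine at each passage, where 20.2% of all genes were lower at P5 and 23.6% at P10. CDH2, CDH5, CDH11, CDH13 and CDH16 were lower at both, CDH3 at P5 and CDHR5 at P10, and CDHR2 was at least 2-fold higher at P5. CDH5, the cadherin of endothelium, had 166 reads in intestine and 103 in muscle but 1 at P5 and 0 at P10, and CDH11, a mesenchymal cadherin, had 173 and 125 against 9 and 5. CDHR2 and CDHR5 encode the protocadherins that join the tips of brush border microvilli. CDHR2 had 2815 reads in intestine, 5912 at P5 and 1884 at P10, and CDHR5 had 1685, 1623 and 347, so both were lower at P10 than at P5, by log2 differences of -2.09 (-2.18 to -2.02) and -2.69 (-2.86 to -2.53).

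Among partners and proteases of EPCAM, CLDN7, the gene of a claudin that binds EPCAM, had 86 reads in intestine, 0 in muscle, 208 at P5 and 128 at P10. CD9, a tetraspanin gene, had 2921, 594, 6041 and 9374 reads, and was at least 2-fold above intestine at both passages. ST14 encodes matriptase, a protease that cleaves EPCAM, and SPINT2 an inhibitor of it. ST14 had 1133 reads in intestine, 20 in muscle, 1940 at P5 and 1637 at P10, and SPINT2 had 5346, 39, 5298 and 5919. In CPM, SPINT2 stood at 301 in intestine, 390 at P5 and 334 at P10. Of the filament genes, KRT8 (13892, 56690 and 72376 reads in intestine, P5 and P10 organoids) and KRT18 (825, 7790 and 33299) were higher in organoids. In CPM, KRT8 stood at 781 in intestine, 4168 at P5 and 4082 at P10. KRT20, a keratin of differentiated cells, went from 23086 and 31917 reads to 12134 at P10. DES, the gene of desmin, was at 0 in both organoid libraries.

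Of 10 epithelial regulators, 4 of the 9 with enough reads stood at least 2-fold above intestine at P5 (all genes 20.2%) and 5 at P10 (all genes 25.5%), and none was lower. CDX1 and CDX2 encode intestinal homeobox factors. CDX1 had 112 reads in intestine, 1040 at P5 and 2613 at P10, and CDX2 had 4, 199 and 24. OVOL1 had 1569 reads in intestine (88.3 CPM), 2246 at P5 (165 CPM) and 2888 at P10 (163 CPM), so its level was nearly the same at both passages. Of the 5 repressors of CDH1, SNAI1 and TWIST1 were at 0 in both organoid libraries, ZEB2 had 676 reads in intestine, 20 at P5 and 5 at P10, and SNAI2 had 38, 0 and 21. ZEB1, also a repressor of CDH1, had 1939 reads in intestine, 1627 at P5 and 5921 at P10, a log2 difference of 1.54 (1.46 to 1.64) between the passages, while CDH1 differed by -0.42 (-0.57 to -0.29).

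The 5 genes outside the set whose pattern over the 4 libraries lay nearest to the median pattern of the 10 were CALML4, LOC112448447, ST14, FA2H and PDP2, out of 15041 genes that reached 50 reads in some library. Likeness was the Euclidean distance of normalised log2 values centred per gene, which was 0.40 to 0.43 for these genes and 0.68 (PKP2) to 4.81 (PKP3) for the 10 themselves. CALML4 had 2581 reads in intestine, 55 in muscle, 6027 at P5 and 4624 at P10. With 4 libraries, such a match describes only the order and spacing of 4 values.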

How the data were processed

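RNA was profiled in 4 libraries with the QuantSeq 3′ mRNA-Seq kit. The authors aligned reads with Bowtie2 and counted unique and multiple alignments with Bedtools, and deposited whole-number counts per gene symbol without normalisation. Versions, genome build and annotation are not given in the sources used here. Reads with several alignments were included, so near-identical genes are uncertain. The paper states quantile normalisation with edgeR, so quantile normalisation was applied across libraries to the 22200 rows with a read, followed by log2(value + 1). It spreads low counts unevenly: 1 read has a log2 value of 0.32 in intestine and 2.09 in muscle. Limits of differences combine the exact Poisson limits of both counts, passed through the normalisation. Ratios within a library have exact binomial limits, and shares Wilson limits. The fold against a library at 0 reads sets that library at 3 reads, which lies below the upper Poisson limit for 0 reads. Percentages over all genes count those reaching 50 reads in the higher library of the pair. The text names the 10 genes, genes of the fixed lists and the 5 nearest patterns. The members and lists were chosen with earlier results of these data known. Alternatives were library totals (with or without RN18S1), TMM and upper-quartile normalisation (edgeR 4.0.16), pseudocounts of 0.1 and 5 and a filter of 10 reads, and, added after seeing the data, quantile normalisation without muscle. The script was tested on simulated data and against limma 3.58.1, with Python 3.11.15, numpy 2.4.6, scipy 1.17.1, pandas 2.3.3 and R 4.3.3. Counts over the list of EPCAM partners are not reported here.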

Additional observations from a re-analysis of the deposited data

Results flagged for a closer look

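Of the 10 genes, 4 stood above intestine at P5 and below it at P10, with both counting intervals clear of 0. How many of all genes did the same was not counted, so this number has no background beside it. With 1 library per passage, the difference between the passages was not tested. The log2 differences from intestine were 0.90 and -1.52 for DSC2, 1.73 and -0.70 for PERP, 0.74 and -1.01 for CDH17, and 0.75 and -0.12 for DSP. For DSC2, PERP and CDH17 the directions were the same with library totals (with or without RN18S1), TMM and upper-quartile normalisation, and DSP changed direction at P10 with library totals.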

How the results depend on the processing

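Each of the 10 genes stayed at least 2-fold above muscle in intestine and in both organoid libraries under all 7 alternatives that include muscle. The median difference from muscle moved past the medians of the 10 genes' counting limits with library totals, to 5.31 in intestine, 6.36 at P5 and 5.77 at P10. Without RN18S1 it did so in intestine, at 5.002, and at P10, at 5.39. The median of P10 organoids against intestine moved to 0.61 with library totals and 0.55 without RN18S1, and that of P10 against P5 organoids to -0.85 with library totals. The number of genes at least 2-fold lower in P10 organoids than in intestine was 1 with library totals, without RN18S1, with TMM, with upper-quartile normalisation and with quantile normalisation without muscle, since CDH17 lay near 2-fold. DSP was higher in P10 organoids than in intestine with library totals (0.16) and without RN18S1 (0.10). Of 450 values of single genes under an alternative, 365 stayed within their counting interval, 83 left it in the same direction and these 2 changed direction. TMM moved the median of all genes by -0.11 for both organoid libraries against intestine and by 0.17 for intestine against muscle. Values that rest on few muscle reads, such as 5 for PKP2 and 6 for DSC2, are limited by depth. No paired analysis was possible because each condition has 1 library.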
